A study of Mus musculus with 2 samples.

Results

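A set of 9 microRNA loci of red cells and white blood cells was followed in small RNA libraries of the embryonic mouse hindbrain. They were chosen by name, among 1973 loci with a row in the deposited tables. They are Mir451a, Mir144 and Mir486 of red cells, Mir142 of all white blood cells and Mir223 of myeloid cells. The others are Mir150 of lymphocytes, Mir155 of lymphocytes and immune activation, and Mir146 (the locus of miR-146a) and Mir146b of inflammatory signalling. The tables have no row for Mir142 itself. Its counts were read from the opposite strand of Mir142b, a locus annotated over the same hairpin. The hindbrain is the part of the brain that gives rise to the cerebellum, pons and medulla.

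The series holds 1 group, hindbrain of strain B6NCrl at embryonic day 14.5, with 2 libraries of RNA under 30 nucleotides. No genetic change or treatment is labelled. Replicate 1 was collected on 24 July 2014 and replicate 2 on 30 July 2014. The labels number the libraries as biological replicates 1 and 2. They also call each sample both a single hindbrain and a pool of the sexes and give both the same donor label. How much of the spread between the libraries is biological and how much technical therefore cannot be told. Replicate 1 had 5826676 counts on loci and replicate 2 had 6667238. Values are CPM, the counts of a locus per 1000000 counts on all loci, and errors are SD over 2 libraries. Intervals are 95% Clopper-Pearson intervals on reads and cover counting error of reads only. Because reads are not independent molecules, these intervals can be too narrow.

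A microRNA is cut from a hairpin transcript and guides Argonaute proteins to messenger RNAs that pair with its seed, bases 2 to 8. miR-451a is unusual because its hairpin is cut by Ago2 and not by Dicer. It is transcribed together with miR-144 under the erythroid factor Gata1 and is very abundant in red cells. miR-142 is found in all white blood cells, microglia included, and miR-223 in neutrophils, monocytes and platelets. miR-150 accumulates in mature lymphocytes, where it restrains Myb. miR-155 and miR-146a are induced by immune activation through NF-kB, miR-146a acting as a brake on the pathway through Traf6 and Irak1. In dissected embryonic brain, blood left in vessels, resident microglia and other cells that make a little of these microRNAs can all contribute reads.

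The mature products below show which letters the counts stand for. They come from RefSeq on GRCm38.p6, which had a mature entry for 8 of the 9 loci. Mir486 and the 5p product of Mir150 are given by name only. Each is written 5′ to 3′ with the seed in capitals.
miR-451a: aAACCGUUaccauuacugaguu
miR-144-3p: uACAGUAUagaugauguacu
miR-142a-5p: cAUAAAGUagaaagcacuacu
miR-142a-3p: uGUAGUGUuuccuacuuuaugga
miR-223-3p: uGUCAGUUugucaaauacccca
miR-155-5p: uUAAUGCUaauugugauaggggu
miR-146a-5p: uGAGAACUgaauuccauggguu
miR-146b-5p: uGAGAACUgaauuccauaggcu
Of these, only miR-146a-5p and miR-146b-5p shared a seed with each other, and no other product in the RefSeq table had any of the 7 seeds shown. The miR-146 products are the same at 20 of 22 bases and differ by G18A and U21C, counted from the 5′ end of miR-146a-5p. The tables give counts per locus, so the 5p and 3p products of a hairpin could not be told apart.

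The sequences also show how far the products differ from other hairpins. Only hairpins of the RefSeq table were compared, not the rest of the genome. The nearest stretch in any other hairpin of the RefSeq table differed from miR-223-3p at 7 bases and from miR-155-5p at 8. For miR-144-3p it differed at 5 bases. miR-451a had its nearest match, with 4 differences, in the hairpin of Mir451b on the opposite strand of its own locus. The nearest stretch to miR-146a-5p was that of Mir146b, with 2 differences. These loci were the closest pair among those with a mature entry, and Mir486, which has none, was not compared.

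All 9 loci had counts in both libraries, and together they held 1014 CPM in replicate 1 and 1211 CPM in replicate 2. The total behind CPM is that of the gene-strand column, which does not hold the counts of Mir142. Levels covered a range of 303-fold, from 292 ± 48.4 CPM for Mir142 to 0.965 ± 0.0918 CPM for Mir146b (SD, n = 2). Mir142, Mir451a and Mir223 lay above the median of loci with 10 or more counts in both libraries (402 loci, median 129.9 CPM), and the other 6 lay below it. Mir150, at 129.6 CPM, lay just under that median. Small RNA protocols capture some sequences better than others, so levels of different loci are compared with that reserve. In bulk tissue, fewer cells of a type and less microRNA per cell cannot be told apart.

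**Figure D1:**
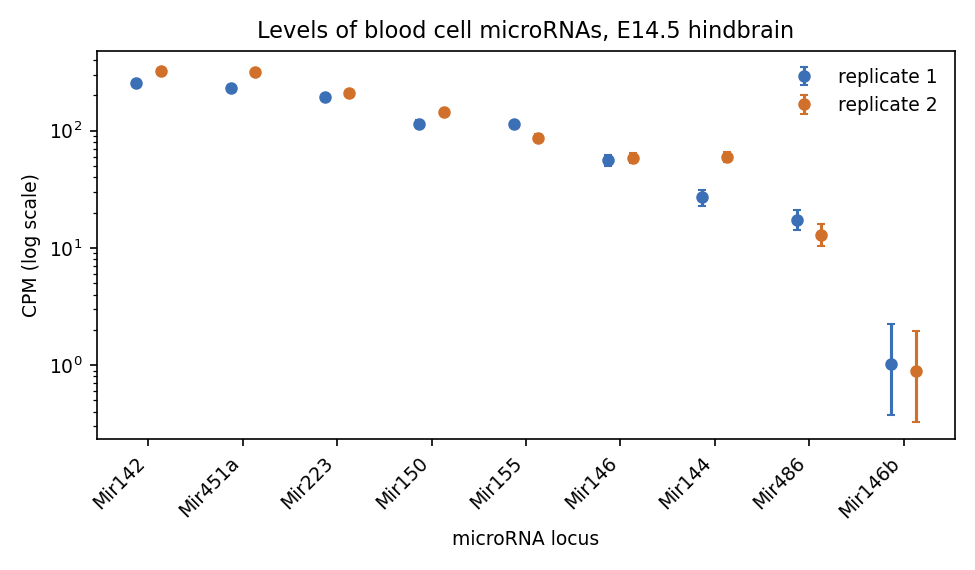
CPM (log scale) of the 9 loci in each library, ordered by mean level, with 95% Clopper-Pearson intervals as bars. Mir142 and Mir451a lie highest, between 234 and 326 CPM, Mir146b lies near 1 CPM, and the widest gap between libraries is that of Mir144.

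Mir451a had 1362 counts in replicate 1 and 2094 in replicate 2, or 234 and 314 CPM. It was the most abundant red cell locus in both libraries and ranked at position 160 of all loci by mean level. Mir144 had 157 and 396 counts, or 26.9 and 59.4 CPM. It lies on chromosome 11 (GRCm38) at 78073005 to 78073070 on the plus strand, with 99 bases between it and Mir451a at 78073170 to 78073241. Mir451b is annotated on the opposite strand of Mir451a, and the nearest protein-coding gene is Eral1 on the minus strand. Although both come from 1 primary transcript, Mir144 gave 11.5 counts per 100 counts of Mir451a in replicate 1 (9.71 to 13.6) and 18.9 in replicate 2 (16.9 to 21.1). The intervals of this ratio do not overlap, and the ratio does not depend on how libraries are scaled.

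Mir486 had 101 and 86 counts, or 17.3 and 12.9 CPM, the lowest of the red cell loci in both libraries. It sits in an intron of Ank1 (chromosome 8, 23142555 to 23142682), the gene of the red cell and muscle membrane protein ankyrin 1. Mir3107, which RefSeq also lists as mir-486b, is annotated on the opposite strand of the same hairpin. Reads that map to several positions (33.9% and 34.3% of the reads) were not assigned to loci. The level of Mir486 is therefore uncertain, and how many of its reads were set aside was not tested. Per 100 counts of Mir451a it gave 7.42 counts in replicate 1 (6.00 to 9.08) and 4.11 in replicate 2 (3.27 to 5.10), so relative to Mir451a it was lower in replicate 2, where Mir144 was higher.

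Mir142 had 1502 counts in replicate 1 and 2175 in replicate 2, or 258 and 326 CPM. It had the highest level of the 9 loci in each library, although the tables list it only through the row of Mir142b. The strand of Mir142b itself had 0 counts in both libraries, where the floor set for a count of 0 was 3 counts, or 0.515 and 0.450 CPM. The product annotated on that strand is shown here because it pairs with miR-142a-3p along all of its 20 bases, so that strand alone separates their reads.
miR-142b: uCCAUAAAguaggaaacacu
Mir142 sits in an intron of the noncoding host gene Mir142hg (chromosome 11, 87756864 to 87756927). Mir142 and Mir451a, neighbours in the order of levels, were not separated by the spread between libraries. Mir451a gave 90.7 counts per 100 counts of Mir142 in replicate 1 (84.2 to 97.6) and 96.3 in replicate 2 (90.6 to 102), and these intervals overlap.

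Mir223 had 1132 and 1390 counts, or 194 and 208 CPM, a close match between the libraries. It sits in an exon of the noncoding gene F630028O10Rik (chromosome X, 96242817 to 96242926). Both libraries of Mir451a lay above both of Mir223, and both of Mir223 lay above both of Mir150. Relative to the pan-leukocyte locus, Mir223 gave 75.4 counts per 100 counts of Mir142 in replicate 1 (69.7 to 81.5) and 63.9 in replicate 2 (59.7 to 68.4). The share of this myeloid locus against Mir142 was thus lower in replicate 2 beyond counting error.

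Mir150 had 666 and 966 counts, or 114 and 145 CPM, and Mir155 had 659 and 576 counts, or 113 and 86.4 CPM. These 2 loci were level in replicate 1, at 98.9 counts of Mir155 per 100 of Mir150 (88.7 to 110.4), and apart in replicate 2, at 59.6 (53.7 to 66.2). The count of Mir150 per 100 of Mir142 was nearly the same in both libraries, 44.3 in replicate 1 (40.4 to 48.6) and 44.4 in replicate 2 (41.1 to 47.9). That of Mir155 was not, with 43.9 (40.0 to 48.1) and 26.5 (24.1 to 29.0). With 2 libraries there is 1 such comparison a locus, so whether Mir150 and Mir142 vary together was not tested. Mir150 lies on chromosome 7 at 45121757 to 45121821 outside annotated genes. Mir155 sits in an exon of its host transcript Mir155hg, known as BIC (chromosome 16, 84714140 to 84714204).

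Mir146 had 325 and 388 counts, or 55.8 and 58.2 CPM, and Mir146b had 6 counts in each library, or 1.03 and 0.900 CPM. Mir146b gave 1.85 counts per 100 of Mir146 in replicate 1 (0.673 to 4.06) and 1.55 in replicate 2 (0.564 to 3.40). Mir146 thus had nearly all the assigned reads of this pair of loci, in which products of both arms are counted together. It lies on chromosome 11 at 43374397 to 43374461 on the minus strand, outside annotated genes. Mir146b sits in an intron of Mfsd13a (chromosome 19, 46342762 to 46342870). Mir146 and Mir144 were neighbours in level and differed in order between the libraries, with Mir146 higher in replicate 1 and Mir144 slightly higher in replicate 2. The 6 other pairs of neighbours were separated, both libraries of the higher locus lying above both of the lower, though Mir150 and Mir155 differed in replicate 1 by less than counting error.

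As shares of the 9 loci together, 5910 counts in replicate 1 and 8077 in replicate 2, the red cell group held 27.4% (26.3 to 28.6) and 31.9% (30.9 to 32.9). Mir451a held 23.0% and 25.9%, and Mir144 held 2.66% and 4.90%, both with the larger share in replicate 2. Mir486 had the smaller share there, with 1.71% (1.39 to 2.07) in replicate 1 and 1.06% (0.853 to 1.31) in replicate 2. Mir142 held 25.4% (24.3 to 26.5) and 26.9% (26.0 to 27.9). Mir155 had the larger share in replicate 1, with 11.2% (10.4 to 12.0) against 7.13% (6.58 to 7.71). Mir150 held 11.3% and 12.0%, with overlapping intervals. The summed share of the red cell loci thus differed between the libraries by more than counting error.

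**Figure D2:**
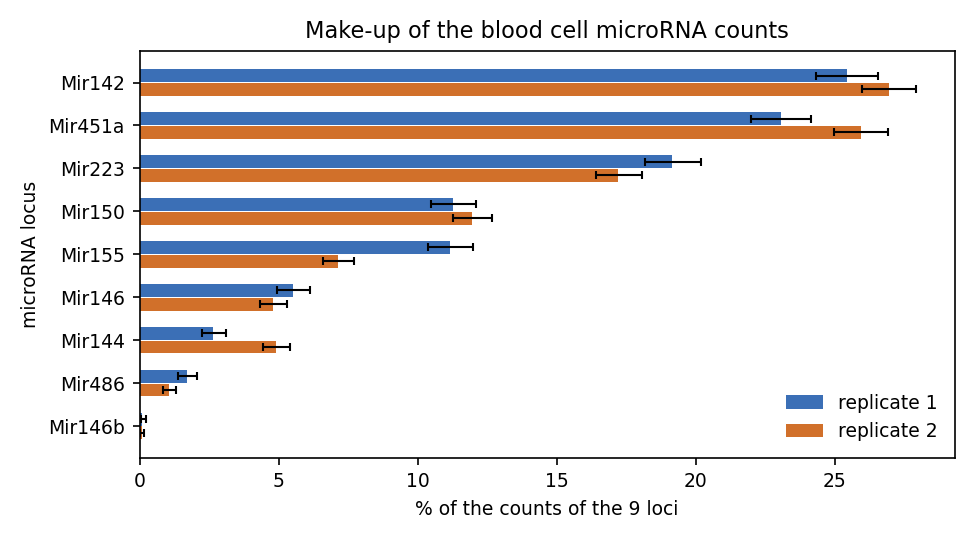
Each bar is the percentage of the counts of the 9 loci that fell on a locus in a library, with 95% Clopper-Pearson intervals. Mir451a and Mir144 take a larger share in replicate 2, while Mir486 takes a smaller one and Mir155 takes 11.2% in replicate 1 and 7.13% in replicate 2.

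The difference between the libraries was also tested for every locus with a summed count of at least 10, after TMM scaling. The test was an exact two-sided binomial test with Benjamini-Hochberg adjustment over 499 loci, Mir142 included. It compares these 2 libraries, not conditions, and it covers counting error only. Of the 9 blood cell loci, 4 were higher in replicate 2 (Mir144, Mir451a, Mir150 and Mir142), 1 was lower (Mir155) and 4 did not pass. Among all tested loci 17.6% were called higher and 15.0% lower, 32.7% in all. The median log2 ratio of replicate 2 over replicate 1 was 0.06 for the 9 loci and 0.01 for all tested loci. With library totals in place of TMM, calls over all loci were 115 higher and 59 lower, against 88 and 75, while the 9 loci gave the same counts.

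Mir144 had a log2 ratio of 1.09 (0.83 to 1.37), and its adjusted p was 3.6e-16 by the exact binomial test. The 12 tested loci with a higher ratio had few reads, 65 counts in a library at most. Mir451a had a log2 ratio of 0.38 (0.28 to 0.48, adjusted p = 1.2e-13 by the exact binomial test), less than that of its cluster partner by an amount that left the intervals apart. Mir486 had a log2 ratio of -0.47 (-0.90 to -0.04) and did not pass (adjusted p = 0.077, exact binomial test). The 3 red cell loci thus did not share 1 ratio between these libraries.

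Mir142 and Mir150 had nearly equal log2 ratios, 0.30 (0.20 to 0.39) and 0.30 (0.16 to 0.44). Their adjusted p values by the exact binomial test were 4.8e-09 and 0.00017. Mir155 had a log2 ratio of -0.43 (-0.60 to -0.27, adjusted p = 9.7e-07, exact binomial test), opposite to that of Mir150. Mir223 had 0.06 (-0.06 to 0.17) and Mir146 0.02 (-0.20 to 0.24), and neither passed. For Mir146b, with 12 counts in all, the interval from -2.14 to 1.67 is too wide to place the ratio at this depth.

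**Figure D3:**
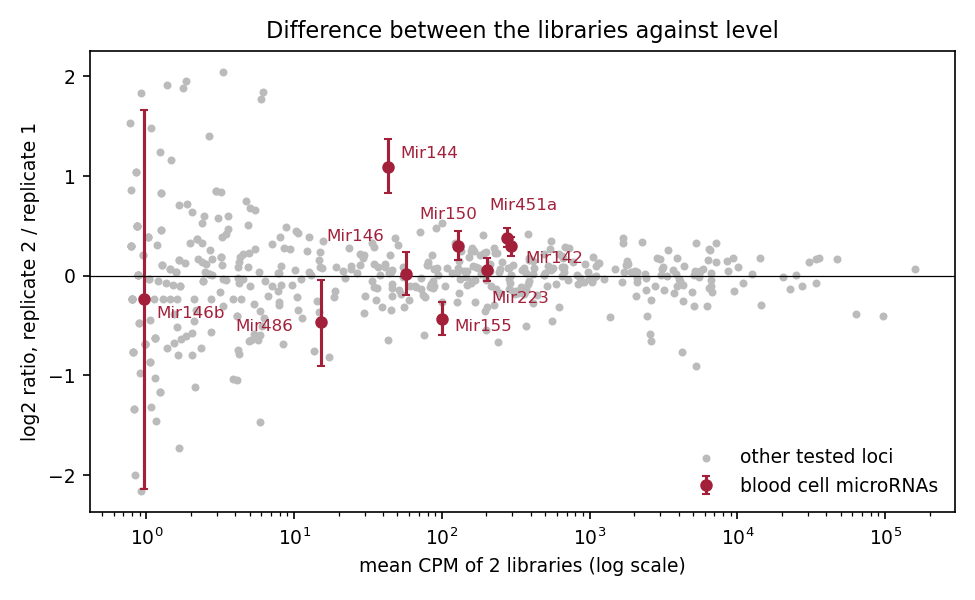
Log2 ratio of replicate 2 over replicate 1 after TMM scaling against mean CPM (log scale) for the 499 tested loci. The 9 blood cell loci among them are in red with exact 95% intervals, and the others are in grey. Mir144 stands at 1.09, clear of loci of like level, while the other blood cell loci lie between -0.47 and 0.38.

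When the spread between the libraries was allowed for with edgeR's common dispersion (a coefficient of variation of 10.8%), Mir144 alone of the 9 loci was called, with an adjusted p of 0.0085. Over all loci 7 were called, or 1.40%. The unadjusted p was 0.092 for Mir451a, 0.069 for Mir155, 0.19 for Mir142 and 0.20 for Mir150 in that exact test of edgeR, whose dispersion came from these same libraries. For 4 of the 5 loci called by the binomial test, the difference thus passed against counting error and did not pass once that spread was allowed for.

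A list of 8 other microRNAs known in blood cells, which are also made outside blood, covered a wide range of levels. Mir22, Mir342, Mir21a and Mir652 lay far above all 9 loci, while Mir221, Mir222, Mir147 and Mir511 lay below Mir142, Mir451a and Mir223. Mir22 had 5832 and 7200 CPM, Mir342 in an intron of Evl 5424 and 5532 CPM, Mir21a 4108 and 4077 CPM, and Mir652 3523 and 3784 CPM. Mir221 and Mir222, which restrain the stem cell factor receptor Kit during red cell maturation, had 181 and 188 CPM and 84.6 and 91.04 CPM. Mir147, induced in activated macrophages, had 6.18 and 7.95 CPM, and Mir511, of the macrophage gene Mrc1, had 2.92 and 3.45 CPM. By the exact binomial test 2 of the 8 were higher in replicate 2 (Mir22 and Mir652) and 1 was lower (Mir21a). The other 5 did not pass, and the median log2 ratio of the 8 was 0.06. Among all 499 tested loci that test called 32.7%. None of the 8 was called with the common dispersion by edgeR, where 1.40% of all tested loci were called. There 0 of the 8 had an unadjusted p under 0.05, against 27 of the 499 tested loci. These counts do not set the list apart from the other loci.

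Markers of other tissues were read in the same tables. Mir126a of endothelium, the lining of the vessels that carry blood, had 31783 and 36687 CPM, or 123 and 112 counts for each count of Mir142. Its log2 ratio of 0.16 (0.16 to 0.17) lay below those of Mir451a and Mir142, and its part in their difference was not tested. Of 13 neural markers 12 had a row and all 12 had counts, together 17881 and 19408 CPM, while Mir9-1 had no row. This sum leaves out reads that map to several copies, as those of the Mir124a and Mir9 loci can, so it is a low estimate. By the exact binomial test 4 of the 12 neural loci were higher in replicate 2, 3 were lower and 5 did not pass. Log2 ratios went both ways, with 0.33 for Mir153 and -0.36 for Mir218-2, and the median of the 12 was -0.01. Among all tested loci that test called 17.6% higher and 15.0% lower. Mir10a and Mir10b, which mark hindbrain and spinal cord, together held 17.9% of the counts in replicate 1 and 14.0% in replicate 2. Both were called lower in replicate 2 by the exact binomial test, with log2 ratios of -0.41 and -0.38. With the common dispersion neither was called, nor was Mir126a (unadjusted p of 0.067, 0.086 and 0.46 in edgeR's exact test). Mir155 was lower in replicate 2 as well, while Mir144, Mir451a, Mir150, Mir142 and Mir126a were higher. The part of Mir10a and Mir10b in those differences was not tested. Of 7 muscle markers 6 had a row (Mir1a-2 had none), with 19.2 and 21.3 CPM in all. Mir206 held most of this, with 14.9 and 16.2 CPM, while Mir1a-1 and Mir133a-1 were at 0 in both libraries. Mir1a and Mir133a each have several copies, so these values do not show a low level. Mir122 of liver, a blood-forming organ at this age, had 13.7 and 15.7 CPM.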

How the data were processed

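Per the file lists that accompany the tables, the authors' deposited raw read counts per microRNA locus use build mm10 and annotation M4. The aligner is not given in the sources used here, nor is the counter. Each table gives counts on both strands and on each strand, and totals leave out the 4 rows of unassigned reads. Symbols and positions came from GENCODE M21 (GRCm38), matched on identifiers without version for 1894 of 1973 loci, and sequences from RefSeq. The gene-strand column gave counts and CPM, except for Mir142 (opposite-strand column of Mir142b). Totals were those of the gene-strand column.

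Library sizes were scaled by TMM in edgeR 4.0.16 over the 499 tested loci (factors 0.985 and 1.01), and log2 ratios added 0.5 to each count. With 2 libraries of 1 group no residual degrees of freedom remain for a quasi-likelihood fit, so an exact binomial test was used, with edgeR's exact test at a common dispersion, and DESeq2 1.42.0 size factors, as alternatives. Calls used an adjusted p of at most 0.05. The floor for a count of 0 was 3 counts. The scripts were tested on simulated data. The members and lists were chosen with earlier results of these data known. All members, further blood cell loci and endothelial loci with a row are named, and lists of other tissues are given mainly as sums. Software was Python 3.11.15, scipy 1.17.1 and R 4.3.3.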

Additional observations from a re-analysis of the deposited data

Results flagged for a closer look

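Mir486 was flagged because reads also lay on the strand of its locus that the main values leave out, above the floor of 3 counts set for a count of 0. That strand, where Mir3107 is annotated, had 6 counts in replicate 1 (1.03 CPM) and 6 in replicate 2 (0.900 CPM), or 5.61% and 6.52% of the counts on both strands. The other 8 loci had at most 1 count there in a library.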

How the results depend on the processing

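The directions of the 9 log2 ratios held under every scaling (upper quartile, library totals and the size factors of DESeq2), pseudocount and strand setting tried. For Mir146 the ratio ranged from 0.00026 to 0.061, so its direction carries little weight. The count minimum (1 or 100) cannot change a ratio, only its adjusted p, and Mir146b could not be tested at a minimum of 100. The 4 loci called higher and the 1 called lower stayed at those numbers under each scaling, minimum and strand setting. With the common dispersion they fell to 1 and 0, since Mir451a, Mir142, Mir150 and Mir155 were no longer called. Mir144 ranged from 1.08 to 1.14 on the log2 scale over these settings and Mir486 from -0.49 to -0.43. The summed level of the 9 loci, 1113 CPM, became 532 when divided by all reads, because unassigned reads enter the total, and ranged from 1014 to 1211 with either library left out. The ratio between libraries needs both, so leaving out a replicate gives no value for it. No paired analysis was possible because there is 1 group. Low counts limit Mir146b and Mir486.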
